A study of Mus musculus with 36 samples.

Results

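A set of 1239 chromatin peaks was described that gained accessibility over unstimulated cells with every one of 5 pattern recognition receptor ligands given alone to mouse dendritic cells. The peaks were chosen by their measured values, from 116557 peaks on chromosomes 1 to 19 (119751 in all). The level of a peak was log2(CPM + 0.5), where CPM is the depth-scaled count (total taken over those chromosomes without the largest-count peak), minus the median level of the library. The difference from control is the mean level of the 2 libraries of a group minus that of the 2 control libraries, and a member had a difference of at least 1, a 2-fold change on this scale, with each of the 5 ligands. ATAC-seq, in which a transposase cuts open DNA, was run on bone marrow cells of female C57BL/6J mice aged 6 to 8 weeks, cultured with GM-CSF. All groups shared that strain, culture and time of 6 h, and each of the 18 groups had 2 libraries.

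The ligands were PAM (P), LPS (L), depleted zymosan (Z), HMW (H, a name the labels do not expand), SeV (S, Sendai virus) and 3',3'-cGAMP (cG). Control cells (Ctrl) received none. Combinations were the pairs PL, PH, LH, PS, PcG, ScG, ZS and ZcG and the triplets PLH, PScG and ZScG, where the letters name the ligands given together. The series title speaks of 7 ligands, while the samples used here carry 6. GM-CSF cultures of bone marrow hold several kinds of myeloid cell, and a bulk library averages over them.

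PAM is a bacterial lipopeptide sensed by Toll-like receptors at the cell surface, LPS is sensed by another Toll-like receptor there, Sendai virus RNA is sensed in the cytosol, and cGAMP binds STING. Depleted zymosan is a yeast cell wall preparation that engages the lectin receptor Dectin-1. These routes start apart and share later steps, among them NF-kappaB and MAP kinase signalling, and stimulated dendritic cells open enhancers near cytokine, chemokine and maturation genes. Enhancers mostly lie away from gene starts.

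The promoter sequences shown here are those of the few members that lie at a gene start, since a reader can see in them which known motifs these letters hold. Members overlapped at least 1 base of 11 of the 250-base stretches before a RefSeq gene start (build GRCm38.p6): those of Slamf7, Gm52552, Gm36778, Gm46989, Acsl1, Tnfaip3, Heatr9, Gm4606, Cbx5, Mir155hg and Ms4a14. Each is printed 5′ to 3′ on the strand of its gene, cut to the part inside the peak, with matches to an AP-1 motif, an NF-kappaB motif, a pair of interferon response half-sites or a PU.1 motif in capitals. Slamf7 encodes a leukocyte surface receptor, Heatr9 neighbours the chemokine gene Ccl5, Gm36778 is a gene model without a given name, Tnfaip3 encodes the NF-kappaB inhibitor A20, and Mir155hg is the host gene of miR-155, a microRNA known for its induction in activated immune cells.
Slamf7 (chr1:171649000-171649235, minus strand): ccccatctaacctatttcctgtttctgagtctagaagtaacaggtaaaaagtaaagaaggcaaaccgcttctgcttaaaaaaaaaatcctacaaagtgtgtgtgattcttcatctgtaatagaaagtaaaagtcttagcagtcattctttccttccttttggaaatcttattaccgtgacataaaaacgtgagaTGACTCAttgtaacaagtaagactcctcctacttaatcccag
Heatr9 (chr11:83522100-83522349, minus strand): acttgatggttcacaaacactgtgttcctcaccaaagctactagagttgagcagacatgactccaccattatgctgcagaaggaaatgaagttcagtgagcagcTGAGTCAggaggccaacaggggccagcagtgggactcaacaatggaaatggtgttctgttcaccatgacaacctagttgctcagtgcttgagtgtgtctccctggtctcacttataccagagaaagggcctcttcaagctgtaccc
Gm36778 (chr3:109055458-109055707, plus strand): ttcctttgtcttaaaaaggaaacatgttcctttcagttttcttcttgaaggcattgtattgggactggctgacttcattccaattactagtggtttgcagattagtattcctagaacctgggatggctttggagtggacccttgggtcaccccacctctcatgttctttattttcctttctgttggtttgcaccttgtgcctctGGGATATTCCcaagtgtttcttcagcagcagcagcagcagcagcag
Tnfaip3 (chr10:19011964-19012213, minus strand): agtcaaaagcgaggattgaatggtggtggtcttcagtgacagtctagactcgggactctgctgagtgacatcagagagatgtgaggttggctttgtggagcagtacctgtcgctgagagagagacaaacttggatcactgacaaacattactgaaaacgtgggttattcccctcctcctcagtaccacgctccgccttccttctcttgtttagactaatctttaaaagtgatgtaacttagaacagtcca
Mir155hg (chr16:84712773-84713022, plus strand): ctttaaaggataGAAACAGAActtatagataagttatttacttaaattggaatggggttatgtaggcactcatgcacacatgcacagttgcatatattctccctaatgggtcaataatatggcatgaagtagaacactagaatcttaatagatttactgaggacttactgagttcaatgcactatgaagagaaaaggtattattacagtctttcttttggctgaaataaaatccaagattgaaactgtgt
miR-155-5p (chr16:84714143-84714165, plus strand, seed in capitals): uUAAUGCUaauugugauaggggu

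The AP-1 motif TGANTCA, searched on both strands like the others, was in 3 of the 11 member stretches (Slamf7, Heatr9 and Ms4a14), and 4.92% of the 13915 such stretches under any peak held it, as did 6.77% of all 31396. An NF-kappaB motif was in 2 (Gm36778 and Gm46989), against 4.94% of stretches under a peak and 3.96% of all. The Tnfaip3 stretch holds the letters gggttattcc, which differ from the Gm36778 match GGGATATTCC in 1 base. The pattern searched did not take them, so a stretch without a match can still hold related letters. The half-site pair GAAANNGAA was in 2 (Cbx5 and Mir155hg), against 6.31% and 7.14%, and the GAS motif TTCNNNGAA, which marks STAT binding, was in 1 (Gm36778), against 5.82% and 7.06%. The PU.1 letters GAGGAAGT (2.93% and 2.47%), the C/EBP letters TTGCNNAA (7.83% and 9.66%), the CRE letters TGACGTCA (2.69% and 1.58%), the E-box CACGTG (8.44% and 6.02%) and the CTCF core AGGTGGCAG (0.647% and 0.637%) were in none of the 11. These matches describe letters in short windows. They cover few of the members, since the other members have no sequence in the tables used here.

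Most members lay away from gene starts. Only 38 of the 1239 (3.07%) lay within 1 kb of a coding start, against 13.3% of all peaks on these chromosomes, 629 (50.8%, against 47.1%) were inside a coding gene beyond that distance, and 572 (46.2%, against 39.6%) were outside genes. The median distance to a start was 23256 bp for members and 17905 bp for all peaks, and 13.6% of members and 13.2% of all lay over 100 kb away. The members were wider, with a median of 577 bp against 451 bp. They were spread over all 19 chromosomes and had 996 different nearest genes.

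Some members lay close together. Another member was within 20 kb for 245 of them (19.8%), which formed 103 groups of 2 or more and 26 of 3 or more. The largest group had 7 members of the 32 peaks in chr8:40881623-40925051, in and beside Slc7a2, which encodes a transporter of cationic amino acids. Groups followed near Cenpu on chromosome 8 (6 of 10 peaks), near Mir155hg on chromosome 16 (5 of 9), upstream of Htr2a on chromosome 14 (5 of 6), in Ptges on chromosome 2 (4 of 7), which encodes a prostaglandin E synthase, and among the lectin-like receptor genes Klrc1, Klrc2, Klrc3 and Klri1 on chromosome 6 (4 of 9), whose near-identical copies can share reads. Groups of 3 lay near Il10 and Ptgs2, the genes of interleukin 10 and of the inducible prostaglandin synthase. Neighbouring members share a locus and are not independent of each other.

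The libraries were checked against cell markers. A peak lay at the start of all 10 dendritic and myeloid marker genes, among them Itgax, Spi1 and Cd74. The summed signal of these peaks was 210 and 218 CPM in the control libraries and 187 to 265 CPM over all 36. Single genes moved within that sum. The Tyrobp peak (4.67 to 19.5 CPM) and the Ciita peak (0.665 to 5.21 CPM) were each highest in a control library. Those of Csf1r, H2-Ab1 and Irf8 were each lowest in a control library. None of the 12 T cell, B cell, mast cell and basophil marker genes had a peak at its start. Of 5 neutrophil genes, Camp and S100a8 had one and Ly6g, Ngp and Mpo had none, and their sum was 47.9 and 37.5 CPM in control, 28.5 to 68.0 CPM with the 5 ligands and 50.9 and 45.7 CPM in Z. No marker peak was a member. Fewer cells of a type and less accessibility per cell cannot be told apart in these bulk libraries. The share of all counts in the mitochondrial peak was 61.0% in control and 61.7% in Z, and 44.4% to 51.6% with the 5 ligands, so it moved with the contrast that chose the members. It was also high in ScG (59.4%), ZcG (63.0%) and ZScG (58.3%).

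In control cells the members were mostly weak. Their median was 0.760 CPM in control 1 and 0.927 CPM in control 2, and 0.796 CPM as a mean, against 2.47 CPM for all peaks. The median member rested on 13 counts in the control libraries together, 47 members had no count in either, and 703 (56.7%) were under 1 CPM, against 22.8% of all peaks. Only 79 members had 5 CPM or more in control. For the weakest members the difference is set in part by the pseudocount of 0.5 CPM. The median difference over the 5 ligands was 1.62 for the 434 members under 0.5 CPM and 1.55 for those over 5 CPM, values that the rule itself selected on.

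The 5 ligands did not raise the members to the same height. Sendai virus gave the highest median difference from control, 1.84, and HMW the lowest, 1.36, with LPS at 1.66, PAM at 1.62 and cGAMP at 1.61. These values chose the members and carry no test. Sendai virus was the largest of the 5 in 441 members, PAM in 354, LPS in 231, cGAMP in 177 and HMW in 36, and HMW was the smallest in 503. The spread between the largest and the smallest had a median of 0.868, and 496 members had a spread over 1. Noise alone widens the spread between the largest and smallest of 5 values, and no test between ligands was run. In 1217 members all 10 libraries of the 5 ligands lay above both control libraries. In the count model 1143 members were called higher with all 5 ligands, and 1.98% of all tested peaks were. That contrast chose the members, so nothing is read from it.

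**Figure D1:**
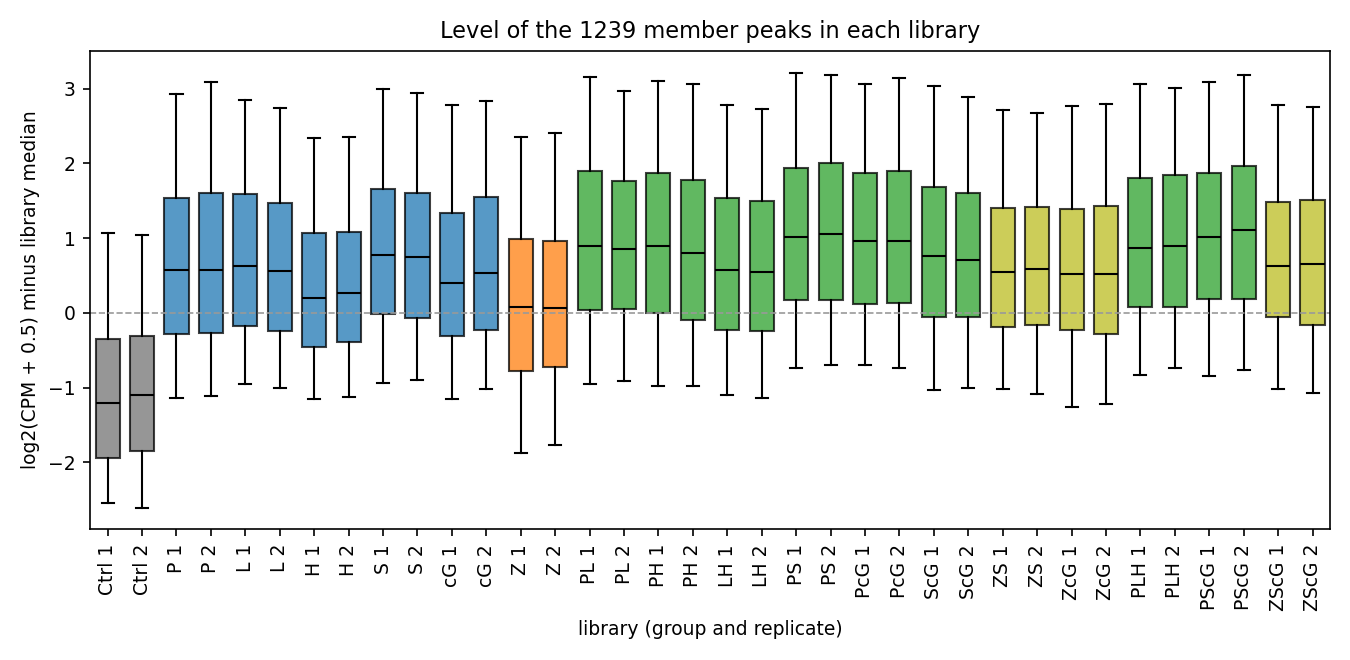
Box plots of the centred level, log2(CPM + 0.5) minus the library median, of the 1239 members in each of the 36 libraries (line, median; box, quartiles; whiskers, 5th to 95th percentile). The medians were -1.21 and -1.10 in the control libraries, 0.073 and 0.0587 in the Z libraries and 0.201 to 0.778 in the libraries of the 5 ligands that chose the members, and the highest was 1.11 in PScG.

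Among the members with the highest smallest difference, a peak inside Ell2 (chr13:75754043-75755548), which encodes a factor of RNA polymerase II elongation, stood at 3.29 and 3.24 CPM in control. It reached 53.0 and 71.3 CPM with PAM, 37.8 and 30.8 with LPS, 26.9 and 24.3 with HMW, 27.7 and 28.0 with Sendai virus and 21.4 and 24.7 with cGAMP. Its Z libraries had 32.1 and 31.9 CPM, within the range of the 5 ligands. Among the single ligands the PAM libraries were highest, and no library of a single ligand overlapped control. A peak 339 kb upstream of Nrp1, a receptor gene (chr8:128019652-128020494), had 0.760 and 0.464 CPM in control and 5.13 to 12.1 CPM in the 10 libraries of the 5 ligands. A peak 106 kb upstream of Ercc6l2 (chr13:63708558-63709285) had 0.760 and 0.116 CPM in control, 15.5 and 13.2 with PAM and 15.8 and 12.1 with Sendai virus, but 4.97 and 6.90 with HMW. Here the ligands fell apart by more than the replicates did. Peaks nearest Helt (smallest difference 2.47), Mbl2, Cog4 and Calhm6 and one 84.0 kb downstream of the Mrpl39 start (2.44) completed these 8, whose smallest differences ran from 2.37 to 2.70.

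The members with the most signal included 3 at the miR-155 locus. The peak over the Mir155hg start and the miRNA itself (chr16:84711200-84714913), whose promoter stretch and mature sequence are printed above, had 16.6 and 11.4 CPM in control, 76.3 and 63.9 with PAM, 76.3 and 74.2 with LPS, 50.5 and 52.5 with HMW, 67.3 and 72.2 with Sendai virus and 54.5 and 53.5 with cGAMP. Z reached 40.0 and 40.4 CPM, above both controls and below all 10 libraries of the 5 ligands. On one side of it the peak chr16:84702454-84709237 went from 22.4 and 21.8 CPM in control to 51.4 and 51.0 with HMW and 108 and 95.6 with Sendai virus. On the other side, the peak chr16:84715616-84722233, which reaches into Mrpl39, a mitochondrial ribosomal protein gene, went from 5.19 and 7.53 CPM to 21.6 and 35.9 with HMW and 91.5 and 99.5 with Sendai virus. All 3 were lowest with HMW among the 5 ligands. The peak chr2:30926810-30930266 inside Ptges had 37.9 and 33.7 CPM in control and 75.4 to 124 CPM in the 10 libraries, and one inside Cemip2, a hyaluronidase gene (chr19:21819605-21820964), had 16.2 and 14.6 CPM in control and 38.6 to 80.4 CPM.

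A peak that covers Ccl5, the gene of a chemokine for T cells and monocytes, and the start of Heatr9 (chr11:83521831-83527834) differed widely between ligands. It had 5.95 and 5.33 CPM in control and 14.8 and 17.7 with PAM. LPS gave 67.6 and 52.1 CPM, HMW 40.5 and 38.1, cGAMP 82.9 and 107, and Sendai virus 124 and 120. In Z it had 5.66 and 8.23 CPM, which overlaps control.

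**Figure D2:**
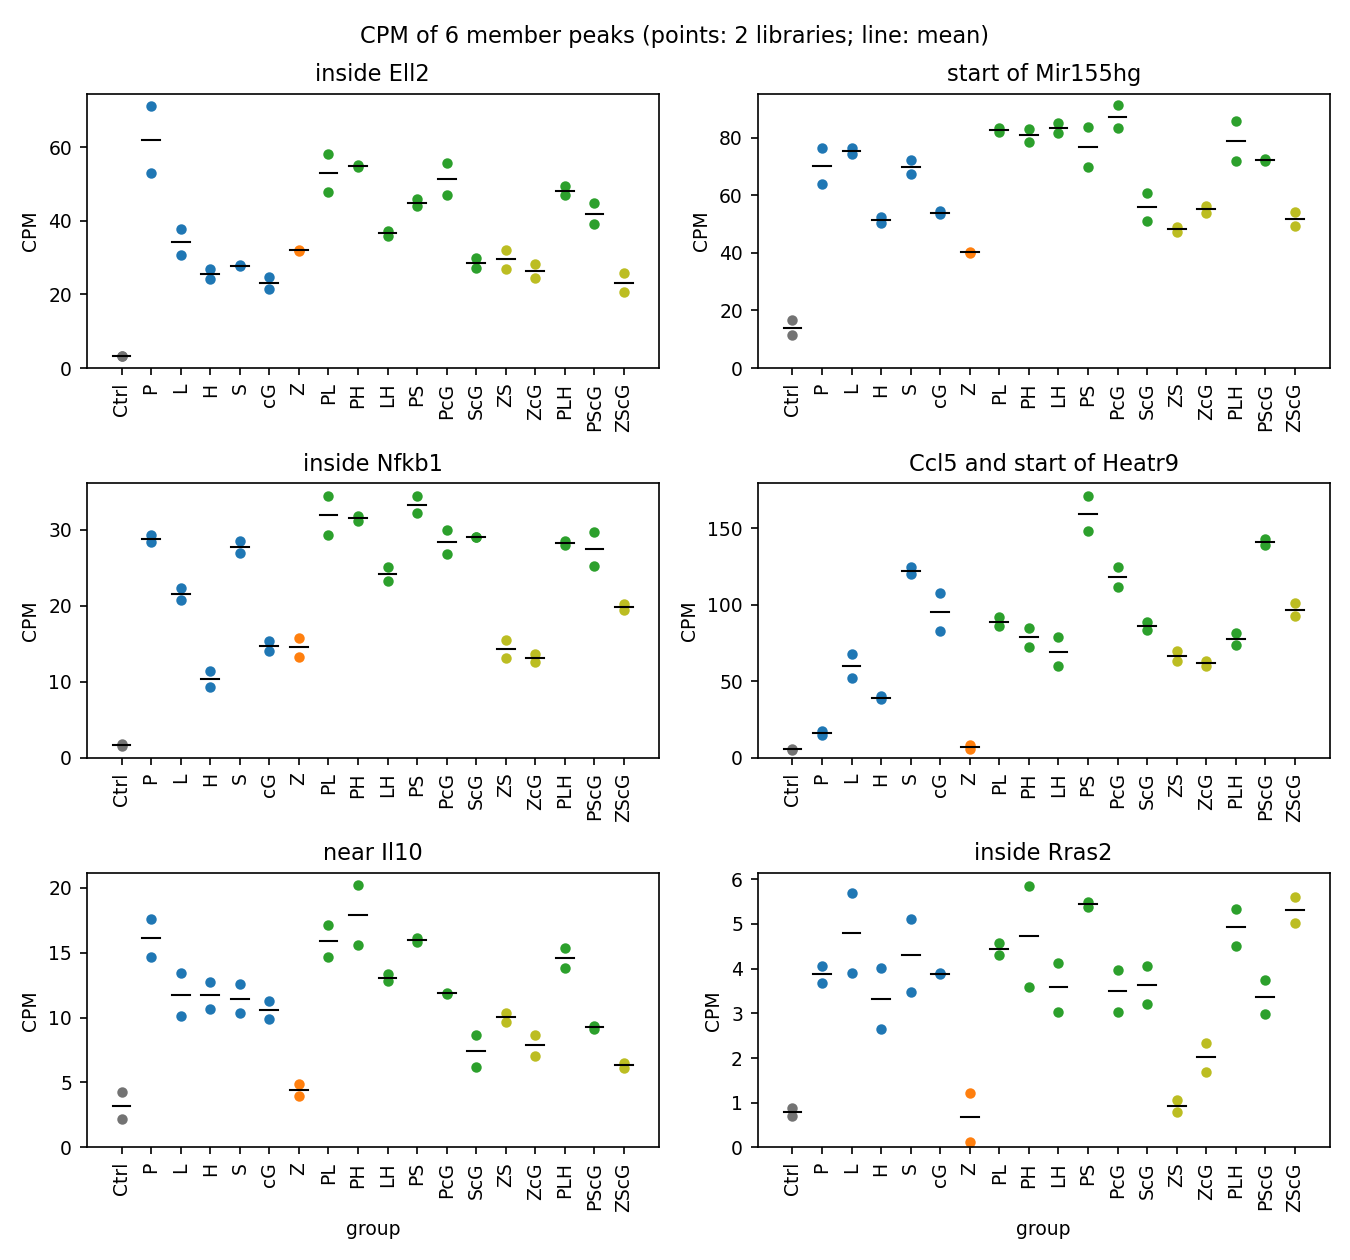
CPM of 6 members in all 18 groups (points, the 2 libraries; line, their mean; each panel has its own axis from 0). In the Ell2, Mir155hg and Nfkb1 panels Z lies well above control, while in the Ccl5 and Heatr9, Il10 and Rras2 panels Z lies close to control although each of the 5 ligands lies above it.

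The NF-kappaB list, of 16 genes for subunits, inhibitors and adaptors with 311 peaks nearest to them, held 11 members (3.54%, against 1.06% of all peaks), near Nfkb1, Tnfaip3, Traf1 and Tnip1. Nfkb1 encodes the precursor p105 of an NF-kappaB subunit. A peak inside it (chr3:135640041-135640780) had 1.77 and 1.51 CPM in control, 28.4 and 29.3 with PAM, 26.9 and 28.5 with Sendai virus, 22.3 and 20.8 with LPS, 14.0 and 15.4 with cGAMP and 9.37 and 11.5 with HMW. PAM and Sendai virus were alike here and HMW was lowest. The peak at the Tnfaip3 start (chr10:19011097-19013168) had 5.07 and 4.98 CPM in control, 26.9 and 24.6 with PAM and 13.9 and 14.8 with cGAMP, and one 62.2 kb upstream (chr10:19077649-19078549) had 3.42 and 3.59 CPM in control and 11.1 to 23.0 CPM in the 10 libraries. Tnfaip3 was the nearest gene of 5 members.

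Inflammatory cytokine and chemokine genes, 26 with 379 peaks, held 22 members (5.80%) near 10 genes: Ccl4, Ccl5, Cxcl5, Il10, Il12b, Il1a, Il27, Il6, Nos2 and Ptgs2. Near Il10, which had 6 members in all, the peak chr1:131045143-131047352 had 2.15 and 4.29 CPM in control, 14.7 and 17.6 with PAM and 9.85 to 13.4 CPM in the libraries of the other four ligands. A peak 103 kb downstream of Ptgs2 (chr1:150202950-150203530) had 11.5 and 8.98 CPM with PAM and 7.29 and 8.61 with Sendai virus, against 3.18 to 4.72 CPM with LPS, HMW and cGAMP. A second peak near Ccl5 (chr11:83531561-83532805) had 1.52 and 1.16 CPM in control and 6.47 to 17.9 CPM in the 10 libraries, lowest with HMW.

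Dendritic cell maturation and migration genes, 27 with 477 peaks, held 26 members (5.45%) near Cd200, Cd40, Cd44, Cd69, Cd83, Il15ra, Met, Slamf7, Slc7a2, Tnfsf15 and Tnfsf9. The group at Slc7a2, the transporter gene named above, made up 7 of the 26. A peak 12.3 kb upstream of Tnfsf15, a TNF family ligand (chr4:63757354-63758519), had 3.17 and 4.52 CPM in control, 11.7 and 14.7 with PAM, 38.6 and 36.1 with Sendai virus and 37.3 and 35.7 with cGAMP. A peak inside Slamf7 (chr1:171642190-171643014) had 3.93 and 4.64 CPM in control and 13.8 to 27.6 CPM in the 10 libraries. Beside Slc7a2 the strongest member (chr8:40922362-40925051) had 5.70 and 3.71 CPM in control, 33.5 and 32.0 with PAM and 11 and 11.3 with HMW. Sendai virus and cGAMP were highest at Tnfsf15, and PAM at Slc7a2.

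The other lists held few members. Signalling feedback genes, 20 with 468 peaks, held 6 (1.28%) near Dusp1, Dusp2, Dusp4, Rgs1 and Socs3, which include MAP kinase phosphatases and a suppressor of cytokine signalling. The peak 7.97 kb upstream of Socs3 (chr11:117977334-117978488) had 4.56 and 3.82 CPM in control and 23.7 and 24.9 with PAM. AP-1, BATF, ATF and STAT factor genes, 23 with 400 peaks, held 4 (1.00%), 1 each near Atf3, Fos, Fosl2 and Jun, a share close to that of all peaks. Interferon response genes, 28 of which 25 had a peak, held 1 of 228 peaks (0.439%).

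At the threshold, the members just inside were peaks in Zcchc2, Rab32 and Nfkb1 (chr3:135612721-135613615), with smallest differences of 1.0000 to 1.0001. The Nfkb1 peak had 1.01 and 2.32 CPM in control and 4.39 and 3.78 with HMW. Just outside were peaks nearest Il1a, Tent5a and Bcl2l14, with smallest differences of 0.9991 to 0.9996. The last had 1.52 and 4.4 CPM in control and 5.85 and 7.18 with PAM, but 12.1 to 25.9 CPM with the other four ligands.

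The number of members depended on the shared control. All 5 differences subtract the same 2 control libraries, so a low control value raises all of them together. With control 1 alone as the reference 2484 peaks met the rule, and with control 2 alone 2002, of which 919 and 853 were among the 1239. Choosing on the first replicate of every group gave 2222 peaks and on the second 1839, and 388 peaks were chosen by each alone, all of them members (31.3% of the 1239). The largest-count peak was read as the largest on chromosomes 1 to 19 (chr1:24611386-24616337, which held 13.6% to 28.8% of those counts), and keeping it in the totals left 797 peaks, all members. With a pseudocount of 1 there were 483 and with 0.25 there were 2555. Without centring 2046 peaks met the rule, since the median difference of all peaks before centring was 0.092 to 0.198 for the 5 ligands. A threshold of 2 left 22 peaks and one of a 1.5-fold change gave 5058.

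**Figure D3:**
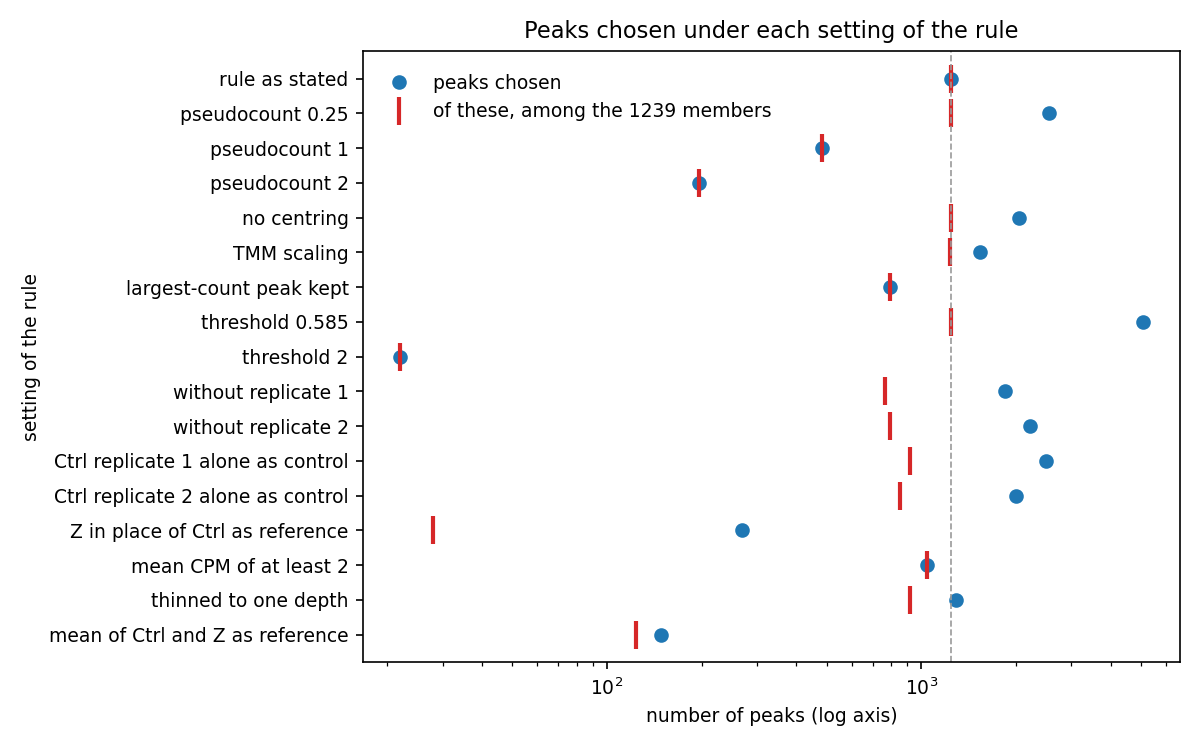
Number of peaks that met the rule under each setting (circles, log axis) and how many of those were among the 1239 members (red marks). Settings that use one control library or one replicate choose more peaks but share only 764 to 919 with the members, and a reference of Z chooses 269 with 28 shared.

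Peaks chosen in one replicate were then read in the other, which shares no library with the choice. Of the 2222 peaks chosen on replicate 1, the median difference in replicate 2 was 0.769 for PAM, 0.914 for LPS, 0.672 for HMW, 1.07 for Sendai virus and 0.944 for cGAMP, and the differences above 0 made up 81.3% (PAM) to 88.6% (Sendai virus). Of the 1839 chosen on replicate 2, the medians in replicate 1 were 0.985, 1.12, 0.788, 1.24 and 0.988 in the same order. The medians over all peaks lay between -0.052 and 0.0669. All 5 differences reached 1 again in 388 peaks, 17.5% of the first set and 21.1% of the second, against 1.58% and 1.91% of all peaks in the replicate read. These sets are not the 1239 members, since 794 and 764 of their peaks are members, and the members themselves were chosen with both replicates. In both readings the median was lowest with HMW and highest with Sendai virus, while the share of differences above 0 was lowest with PAM.

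Depleted zymosan was not used by the rule, but its difference from control shares the control libraries, so it is a description. The median difference of Z over the members was 1.21, against 0.000437 for all peaks, and 832 members (67.2%) reached 1, against 4.43% of all peaks. In 1226 members the difference was above 0, and in 1072 both Z libraries lay above both controls. Z lay below all 5 ligands in 659 members and above all 5 in 24. Read in the replicate that did not choose the peaks, the median of Z was 0.480 in replicate 2 and 0.690 in replicate 1, below each of the 5 ligands, and 27.0% and 35.1% of the peaks reached 1, against 7.00% and 8.36% of all. Z thus stood above control at most members. Its lower place beside the 5 ligands was favoured by the choice, also in the replicate readings. The rule required those ligands to open every chosen peak and asked nothing of Z. Over all peaks, 4.43% reached 1 with Z, 4.73% with HMW, the lowest of the 5, and 10.5% with Sendai virus, the highest. The part of the mitochondrial share (61.0% in control, 61.7% in Z) was not tested.

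**Figure D4:**
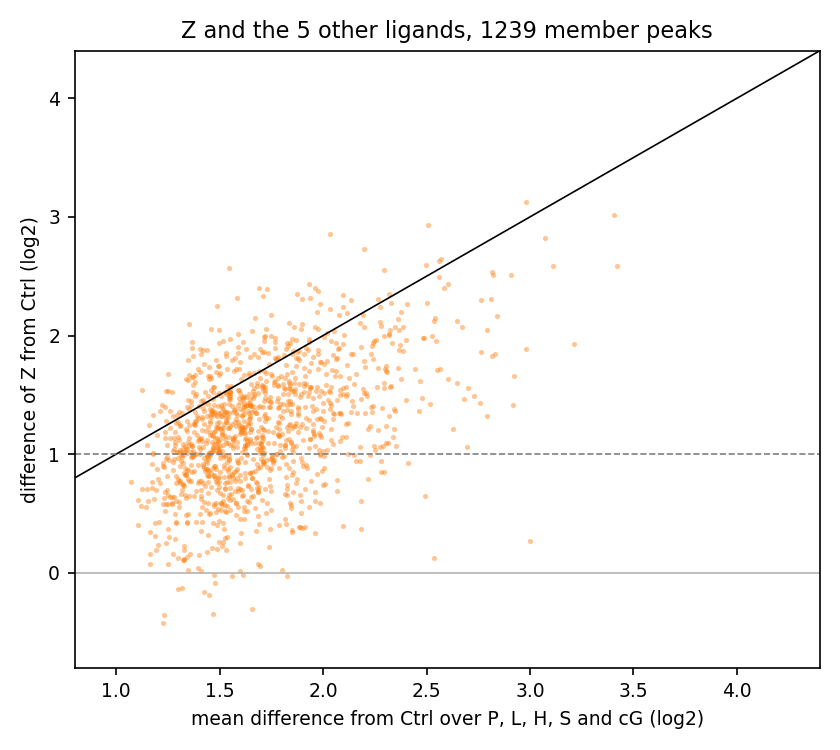
Difference of Z from control against the mean difference of the 5 ligands, both log2, for each of the 1239 members (solid line, equality; dashed line, a difference of 1). Most points lie under the line of equality and 832 lie at or above 1. The axes share the same control libraries, and the rule required each of the 5 ligands, but not Z, to reach 1.

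The members highest in Z were the peaks in Ell2 and near Helt, where Z had 10.4 and 13.3 CPM against 1.01 and 1.04 in control, and peaks in Zfp729a and Gm14325. The last lie in families of near-identical zinc finger genes and are uncertain, since reads may be shared with copies. In Zfp729a Z had 10.1 and 9.95 CPM, PAM 26.6 and 28.7 and cGAMP 2.46 and 3.68. At the other end were peaks nearest Anxa3, Rras2, Clec10a and Fchsd2, with differences of -0.43, -0.30, -0.19 and -0.16 for Z. The peak inside Rras2, a small GTPase gene (chr7:114083721-114084183), had 0.887 and 0.695 CPM in control, 1.22 and 0.123 in Z and 2.65 to 5.68 CPM in the 10 libraries of the 5 ligands. Z overlapped control in this peak, and no library of the 5 ligands did.

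Each combination lay above control at most members, again as a description with shared controls. A difference of at least 1 was found in 1195 members with PL (10.3% of all peaks), 1197 with PH (10.2%), 1134 with LH (8.05%), 1215 with PS (12.5%), 1222 with PcG (12.2%), 1142 with ScG (11.3%), 1129 with ZS (10.9%), 1087 with ZcG (9.53%), 1212 with PLH (11.1%), 1202 with PScG (13.5%) and 1100 with ZScG (12.4%). The median difference ran from 1.60 with ZcG to 2.13 with PScG. All 11 combinations reached 1 in 833 members, and all 17 stimulated groups in 622. In 954 members every one of the 34 stimulated libraries lay above both controls. ScG, ZcG and ZScG, with mitochondrial shares of 59.4%, 63.0% and 58.3% against 61.0% in control, had medians of 1.86, 1.60 and 1.74, and the part of that share was not tested.

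Pairs stood close to the larger of their single ligands and far below the sum of both. The median of the pair minus the larger single was highest for PH (0.0934), followed by PcG (0.0829), PS (0.0455) and PL (0.0328). It was below 0 for LH (-0.0674), ScG (-0.087), ZcG (-0.12) and ZS (-0.257). Minus the sum of both differences, the medians lay between -1.67 (ScG) and -1.21 (PH), and no more than 30 members reached the sum in any pair. The larger of a pair of noisy values tends to be overstated, and the ligand values chose the members, so no test is given. The sum also subtracts the shared control once for each ligand, so a low control value lowers the pair minus the sum.

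The combinations were tested against Z, a comparison that shares no library with the rule. It is still not independent of the choice of members. Each combination holds a ligand that the rule required to open every member, and the rule asked nothing of Z. Calls higher than in Z were therefore favoured. In edgeR's quasi-likelihood fit, a larger share of the members than of all tested peaks was called higher than in Z in all 11 comparisons. With PAM, 571 members (46.1%) were higher in PL (6.78% of all tested peaks), 558 (45%) in PH (5.84%), 690 (55.7%) in PS (10.1%), 680 (54.9%) in PcG (8.95%), 604 (48.7%) in PLH (7.57%) and 733 (59.2%) in PScG (12.0%). Without PAM or zymosan, 362 (29.2%) were higher in LH (5.32%) and 492 (39.7%) in ScG (7.48%). Lower than Z were 12 members in LH (6.76% of all tested peaks) and 1 to 5 in the others (7.03% to 12.7% of all). These few, named after their values were seen, included peaks nearest Trip13 in PL, Igsf3 and Tbx21 in PH, Rwdd2a in PS, Rwdd2a, C1qtnf7, Trip13 and Pnp2 in PcG, Gm21451, Parp14, Gtdc1 and Rap2a in ScG, Trip13, Iqsec1 and Igsf3 in PLH, and Serpine2 and Gipc2 in PScG. The median log2 fold change over members was 0.587 in LH and 1.08 in PScG, the lowest and highest of these 8, against medians between -0.00833 and 0.0266 over all peaks. The mitochondrial share moved with most of these contrasts, at 61.7% in Z against 51.6% in PL, 50.4% in PH, 51.6% in LH, 45.8% in PS, 45.1% in PcG, 59.4% in ScG, 47.4% in PLH and 45.1% in PScG, and its part in the counts was not tested. Fewer members were called in LH without Z replicate 2, where the median log2 fold change was 0.645. Scaled by total counts without TMM, 584 members were higher in LH. With that scaling 16978 of all tested peaks were higher, against 6353 with TMM.

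The combinations that contain zymosan were read against zymosan alone. Here too the added ligands, Sendai virus and cGAMP, were required by the rule to open every member, which favours a rise. Over Z, 332 members (26.8%) rose in ZS (6.63% of all), 232 (18.7%) in ZcG (4.12%) and 412 (33.3%) in ZScG (9.09%). The median log2 fold changes were 0.58, 0.457 and 0.661. In the same order 10, 12 and 23 members fell, against 8.53%, 4.95% and 11.5% of all tested peaks. ZS fell to 194 members without Z replicate 2 and 207 without ZS replicate 2, and ZcG to 140 without Z replicate 2 and 141 without ZcG replicate 2. Mitochondrial shares were 61.7% in Z, 54.5% in ZS, 63.0% in ZcG and 58.3% in ZScG, and their part was not tested.

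**Figure D5:**
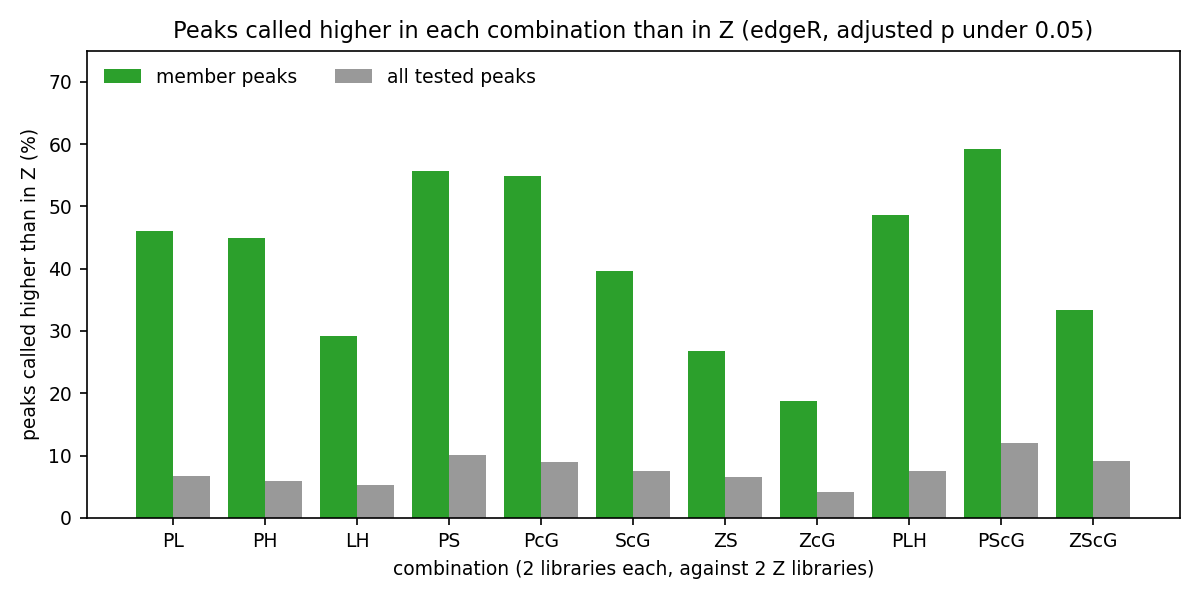
Percentage of the 1239 members (green) and of all 119464 tested peaks (grey) called higher in each of the 11 combinations than in Z. The members lie between 18.7% (ZcG) and 59.2% (PScG), and all peaks between 4.12% and 12.0%.

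The gene lists were read in the same fit. Against Z in PScG, where 59.2% of all members were higher, 17 of the 22 members of the inflammatory list, 10 of 11 of the NF-kappaB list, 19 of 26 of the maturation list, 4 of 6 of the feedback list and 3 of 4 of the AP-1 and STAT factor list were higher, and none was lower. In ZS, where 26.8% of all members were higher, the counts in the same order were 12 of 22, 2 of 11, 7 of 26, 4 of 6 and 1 of 4, and in ZcG, with 18.7%, the feedback list had 0 of 6. The lists were not tested against the whole set. The median log2 fold change of the NF-kappaB members was 1.51 in PScG and 0.36 in ZS. The first Nfkb1 peak had 13.3 and 15.7 CPM in Z, 13.2 and 15.5 in ZS, 13.6 and 12.6 in ZcG and 25.3 and 29.7 in PScG. Z overlapped ZS there, and PScG lay above both.

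The members with the highest and lowest fitted change from Z to ZScG were picked for that change, so their levels are a description. At the Ccl5 and Heatr9 peak the 5.66 and 8.23 CPM in Z became 69.8 and 63.0 in ZS, 59.7 and 63.5 in ZcG and 92.7 and 101 in ZScG, which is 3.73 on the log2 scale (SE 0.146, edgeR adjusted p 1.03e-55). A peak inside Arhgef3 (chr14:27211573-27212332), went from 0.611 and 0.491 CPM to 6.14 and 8.03 (log2 fold change 3.62, SE 0.493). One inside Camk1d, nearest the start of Ccdc3 (chr2:5395764-5396631), went from 1.68 and 0.491 to 11.3 and 10.0 CPM, and one inside Psap (chr10:60298511-60299030) from 0.459 and 0.860 to 8.01 and 4.52 CPM. In each, both libraries of ZScG lay above both of Z. The lowest were peaks in Zcchc2 and near Serpine2, Tbl1xr1 and Rbm5, with log2 fold changes of -2.12, -1.42, -1.32 and -1.30. The Serpine2 peak, near the gene of a serine protease inhibitor, had 10.2 and 6.88 CPM in Z and 3.60 and 2.85 in ZScG (SE 0.318, adjusted p 0.000283 in edgeR), and the Rbm5 change did not pass (adjusted p 0.0715 in edgeR). At Ell2 ZScG was below Z, at -0.52 on the log2 scale (SE 0.144, adjusted p 0.00411 in edgeR).

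More members were called higher than lower with PAM in place of zymosan beside the same partners. The rule required PAM alone to open every member and asked nothing of zymosan, so this direction was favoured by the choice. Members called higher numbered 301 (24.3%) in PS over ZS (4.18% of all tested peaks), 329 (26.6%) in PcG over ZcG (4.69%) and 209 (16.9%) in PScG over ZScG (3.12%), with medians of 0.454, 0.491 and 0.415. Lower were 5, 5 and 4 (2.98%, 5.19% and 1.79% of all tested peaks), all chosen here after their values were seen. A peak near Ralgapa2 was among them in all 3 comparisons (log2 fold changes -0.85, -0.73 and -0.79). The others were peaks near Sec22c and Endov in PS and PScG, Dnmbp and Tnrc18 in PS, Rwdd2a, Pnp2, Ago2 and Prg4 in PcG, and Ttc7 in PScG. PS over ZS fell to 187 without PS replicate 2, 187 without ZS replicate 1 and 185 without ZS replicate 2, PcG over ZcG to 192 without PcG replicate 2 and 188 without ZcG replicate 1, and PScG over ZScG to 101 without PScG replicate 2, 118 without ZScG replicate 1 and 101 without ZScG replicate 2. With total counts in place of TMM the members called higher were 467, 722 and 450. Those totals held the largest-count peak of chromosomes 1 to 19, which CPM leaves out. It took 14.96% and 14.1% of the counts on these chromosomes in PS, and 23.64% and 17.93% in ZS. The shares were 13.71% and 14.45% in PcG, and 28.55% and 28.8% in ZcG. They were 14.52% and 13.76% in PScG, and 23.58% and 24.23% in ZScG. The part of that peak was not tested. With that scaling 11480, 26618 and 13432 of all 119464 tested peaks were called higher, against 4996, 5601 and 3724 with TMM. The median log2 fold changes over all peaks were then 0.211, 0.48 and 0.302. The mitochondrial share was lower with PAM (45.8%, 45.1% and 45.1%) than with zymosan (54.5%, 63.0% and 58.3%), and its part in these counts was not tested.

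PLH, PScG and ZScG were set against the pairs within them. In PLH and PScG the ligand added to each pair was one that the rule required to open every member. Calls higher in these triplets were therefore favoured by the choice. None was called in either direction in PLH against PL by edgeR (0.000837% of all tested peaks), where 57 members had an unadjusted p under 0.05 and DESeq2 called none. Against PH 1 was lower in PLH (0.248% of all called), a second peak nearest Tnfsf15 (chr4:63733434-63742661, log2 fold change -0.45, SE 0.116), and against LH 46 were higher and 1, nearest Gbp7, was lower (0.546%). PScG had 7 higher and 3 lower than PS (0.602%), the lower ones being the Il10 peak above, this second Tnfsf15 peak and one nearest Papss1, and 7 higher and 1 lower than PcG (0.412%), the lower one again nearest Papss1. Against ScG, the pair without PAM, 148 members (11.9%) were higher and 7 (0.565%) lower, against 4.53% of all tested peaks called. Over all tested peaks 2524 were higher and 2893 lower than in ScG. Scaled by total counts without TMM these became 10758 and 483. The mitochondrial share was 45.1% in PScG and 59.4% in ScG, and its part was not tested. Against PS the members' shares, 0.565% higher and 0.242% lower, were close to those of all peaks. Those counts depended on single libraries: leaving out 1 library gave 8 to 18 calls for PLH against LH, 1 to 6 against PS, 1 against PcG and 66 to 91 against ScG, and total counts gave 371 for the last.

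Among the zymosan combinations, 3 members were higher in ZScG than in ZS (0.0586% of all called), inside Rras2 (2.56, SE 0.46), at Ccl5 and Heatr9 (0.60, SE 0.108) and nearest Ccl4 (0.83, SE 0.17), and none was lower. ZScG had 54 (4.36%) higher and 6 (0.484%) lower than ZcG (2.79%), and 2 higher, nearest Endov and Parp14, and 13 lower than ScG (0.772%). Leaving out 1 library gave as few as 15 calls against ZcG and 2 against ScG. The Rras2 peak had 0.798 and 1.06 CPM in ZS, 1.68 and 2.35 in ZcG and 5.61 and 5.02 in ZScG, so of the 4 groups with zymosan only ZScG lay within the range of the 5 ligands.

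The effect of Sendai virus on zymosan was also compared with and without cGAMP. The contrast ZScG minus ZS minus ZcG plus Z was added after the data were seen. It was below 0 in 74 members at the threshold (0.946% of all tested peaks were) and above 0 in 1, nearest Gipc2 (0.642%). The rule chose peaks that Sendai virus and cGAMP each open alone, which can favour values of this contrast below 0. The median of the contrast over members was -0.368 on the log2 scale, against -0.0224 over all peaks. At the Ccl5 and Heatr9 peak it was -2.52 (SE 0.189), and at a peak nearest Fpr2, a formyl peptide receptor gene (chr17:17917243-17918298), -2.54 (SE 0.248). The Ccl5 and Heatr9 peak stood at 59.7 to 69.8 CPM in the libraries of ZS and ZcG and at 92.7 and 101 CPM in ZScG.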

How the data were processed

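The deposited table gives read counts per peak for 119751 peaks and 36 ATAC-seq libraries, and the deposited peak list gives their positions. The submitters' processing notes name Bowtie2 2.2.9, MACS2 1.4, bedtools, featureCounts and the mm10 build, with no role or order. Whether read ends were shifted, how duplicates were treated and whether peaks were called on pooled libraries is not given in the sources used here. Library totals ran from 19097027 to 39977088 counts, and 5973882 to 18387733 remained on chromosomes 1 to 19 without the largest-count peak. Reads carry no molecular identifiers, so precision from counts covers counting error only.

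Counts were scaled by that remainder to CPM, written as log2(CPM + 0.5) and centred on the library median. Tests used edgeR 4.0.16 in R 4.3.3 (TMM factors, filterByExpr, quasi-likelihood fit over all 36 libraries, Benjamini-Hochberg adjustment over 119464 tested peaks, calls at adjusted p under 0.05), after being tested on simulated data. DESeq2 1.42.0 was an alternative. Tables used pandas 2.3.3 in Python 3.11.15. A peak was assigned to the nearest start of a protein-coding gene in RefSeq tables of GRCm38.p6, the same assembly as mm10. For 4205 genes without a listed start, the nearer gene end was used. Sequences came from the RefSeq promoter and miRNA tables of that build.

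The members, gene lists and tests were chosen with earlier results of these data known. Named peaks are the 8 members with the highest smallest difference from control, the 6 with the highest mean CPM, up to 4 for each gene list, the 4 highest and 4 lowest in Z and in the fitted ZScG minus Z, and those at the threshold. Other peaks named were chosen after their values were seen. A few peaks that these rules name are not reported here. The labels do not say that replicates are separate cultures or animals, so p-values measure the spread between these libraries. Alternatives were other settings of the rule, other scalings, filters, fits and each library left out.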

Additional observations from a re-analysis of the deposited data

Results flagged for a closer look

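The difference that Sendai virus made on top of zymosan differed with cGAMP present by a test of that difference (edgeR's quasi-likelihood fit over all 36 libraries, adjusted p under 0.05). In 74 members (5.97%, against 0.946% of all tested peaks) it was smaller with cGAMP. In 1, nearest Gipc2 (log2 1.00, SE 0.249), it was larger, against 0.642% of all tested peaks. The rule chose peaks that Sendai virus and cGAMP each open alone, which can favour a smaller difference. After Heatr9 and Fpr2 the smallest adjusted p-values were at peaks nearest Ripk2, a kinase of NOD receptor signalling (log2 -2.70, SE 0.297), and nearest Ccdc3 (-3.30, SE 0.443). The contrast was added after the data were seen. Without Z replicate 2 the 74 became 44, and without ZcG replicate 2 they became 47.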

How the results depend on the processing

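Of 410 alternative values, 296 kept to within 1.5 times the main count or within the replicate spread, and 114 did not. Counts and shares have no sign, so only the medians of Z could reverse, and none of those did. They share the control and are taken over peaks chosen for opening. The members numbered 1239, and 2555, 483 and 196 with pseudocounts of 0.25, 1 and 2, 2046 without centring, 797 with the largest-count peak kept, 5058 at a 1.5-fold threshold and 22 at a threshold of 2, 2484 and 2002 with control 1 or control 2 alone, 269 with Z as the reference (28 shared, 2.26% of the members and 10.4% of the 269) and 148 with the mean of Ctrl and Z. Leaving out a replicate number from every group gave 1839 to 2222. The median difference of Z was 0.909 and 0.999 over peaks chosen on replicate 1 or replicate 2, 2.13 at a threshold of 2, 1.31 with the largest peak kept and 1.41 over peaks chosen by each replicate alone.

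With total counts in place of TMM, members called were 584 in LH over Z, 467 in PS over ZS, 722 in PcG over ZcG and 450 in PScG over ZScG. All tested peaks called higher rose in the same order from 6353 to 16978, 4996 to 11480, 5601 to 26618 and 3724 to 13432. Members called in either direction were 371 in PScG against ScG, 5 against PcG and 0 in PLH against PH. Fitting only the groups compared gave 5 in PLH against PH, 77 against LH, 28 in PScG against PS, 36 against PcG, 30 in ZScG against ZcG, 6 against ScG and 48 for the contrast of Sendai virus on zymosan with and without cGAMP. DESeq2 gave 3 in PLH against PH, 14 in PScG against PcG and 5 in ZScG against ZS. The cause was not tested.

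Leaving out 1 library gave, of members higher than in Z, 414 to 478 in PL, 386 to 446 in PH, 227 to 275 in LH, 537 to 605 in PS, 483 to 560 in PcG, 336 to 400 in ScG, 194 to 256 in ZS, 140 to 186 in ZcG, 412 to 488 in PLH, 576 to 636 in PScG and 289 to 339 in ZScG. It gave 185 to 219 in PS over ZS, 188 to 239 in PcG over ZcG, 101 to 150 in PScG over ZScG, and 44 to 66 for the contrast with and without cGAMP. Calls in either direction were 0 to 1 in PLH against PL, 0 against PH and 8 to 18 against LH, 1 to 6 in PScG against PS, 1 against PcG and 66 to 91 against ScG, and 1 to 2 in ZScG against ZS, 15 to 32 against ZcG and 2 to 8 against ScG.

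Replicate numbers did not pair the libraries: the correlation of same-numbered deviations over 153 pairs of groups ran from -0.0459 to 0.033, and 0 exceeded 0.1. With a replicate block, 733 members higher in PScG than in Z became 732 and 332 in ZS became 332, and the block moved no count of members by over 1.5 times. Planned motif windows of 500 bases and of distal peaks were not run, since no genome sequence was used here. The median member rests on 13 control counts, and with all libraries thinned to one depth of 5973882 counts the rule gave 1285 peaks, of which 920 were members.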
